A study of Mus musculus with 13 samples.

Results

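The genes described here encode components of complement, the plasma cascade that is activated by antibody bound to tissue. They are *C1ra*, *C1s1*, *Masp1*, *Masp2*, *C2*, *C4b*, *Cfb*, *C3*, *Hc* (which encodes C5) and *C7*. They were chosen by symbol, though with earlier results of these data known. All 10 are among the 35967 gene symbols of the expression table. RNA came from glomeruli, the filtering units of the kidney, of wildtype Balb/c mice. Membranous nephropathy (MN) was induced by injecting 2 mg of rabbit IgG against THSD7A, a podocyte membrane protein, into the peritoneum, and MN mice were examined at day 1 (n = 4) or day 5 (n = 4). Control mice (n = 5) received 2 mg of preimmune rabbit IgG, and controls of both days were pooled by the authors, with no day given per mouse. The study's methods describe males of a narrow adult age range for the MN model. They were podocyte *Thsd7a* knockout mice, C3-deficient mice and the wildtype littermates of each line. Whether the sequenced wildtype mice were littermates of either line is not stated in the sources used here. The study describes control littermates of the *Thsd7a* line as homozygous for a floxed allele, without the Cre enzyme, and functionally wildtype at this gene. Podocytes are the target of the injected antibody, and because that antibody comes from another species, the model transfers antibody from outside instead of raising an autoimmune response.

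In the classical pathway, C1q bound to antibody activates the proteases C1r and C1s, which cleave C4 and C2 to form a C3 convertase. In the lectin pathway, MASP2 cleaves the same substrates and MASP1 activates MASP2. In the alternative pathway, factor B joins C3b to form a second kind of convertase. Cleaved C3 marks the surface, and C5 and C7 belong to the terminal steps that assemble the membrane attack complex. Most circulating complement is made in the liver, and kidney cells also transcribe some of these genes. In MN, complement deposits lie on the outer side of the glomerular basement membrane. The comparison of the groups addresses whether glomerular transcripts of these components differ after antibody binding, and it says nothing of complement protein delivered by the blood.

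Values are TPM, a transcript level scaled to transcript length and to the total of its library, so levels of different genes can be set side by side. The study describes the sequenced samples of a group as independent animals, so each library is taken as 1 mouse. The depth of the libraries is unknown, and no counting error can be attached to a value. The tissue label was checked with lists of marker genes. In control, day 1 and day 5 libraries, 6 podocyte markers summed to between 6481 and 8763 TPM and 5 glomerular endothelial markers to between 4185 and 5321 TPM, and no marker of either list was at 0 in any library. Tubular RNA was also present. A list of 14 markers of the proximal tubule and of the more distal segments summed to 2444 to 8664 TPM in control libraries, 4377 to 7728 TPM at day 1 and 3226 to 3862 TPM at day 5. These sums were highest in control replicate 5 and in the 4 day 1 libraries. Most of each sum was *Kap*, at 1945 to 7313 TPM in control libraries, 3355 to 6447 TPM at day 1 and 2472 to 2943 TPM at day 5. Of 5 hepatocyte markers, *Apoa1*, *Apoa2* and *Fgb* were listed at 0 in at least 1 library, and only *Ttr* passed the filter on low TPM. *Ttr* was at 8.25 to 24.2 TPM in control libraries, at 19.9 TPM or more at day 1 and at 8.42 to 13.8 TPM at day 5. Every day 1 library thus lay above every day 5 library for *Ttr*, and both groups overlapped with control libraries. The cells that *Ttr* RNA came from were not tested.

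The component genes covered a wide range of levels. In control glomeruli the order by mean TPM was *C1s1* (58.4), *Cfb* (33.9), *C1ra* (22.2), *C4b* (4.53), *C2* (4.17), *Masp2* (2.57), *C3* (1.47), *Masp1* (0.314) and *C7* (0.0513), with *Hc* listed at 0 in all 5 libraries. Ranges of control libraries overlapped between neighbours in this order, except between *C1ra* and *C4b*, between *C3* and *Masp1*, and between *Masp1* and *C7*. *C1s1* lay above 75.5% of the tested genes by control mean TPM and *Cfb* above 61.4%, whereas *C3*, the protein on which all 3 pathways converge, lay above 7.57%. Only genes that reached 1 TPM in 4 or more libraries were tested (14322), and 7 of the 10 component genes passed this filter. *Masp1*, *Hc* and *C7* did not pass and were not tested.

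**Figure D1:**
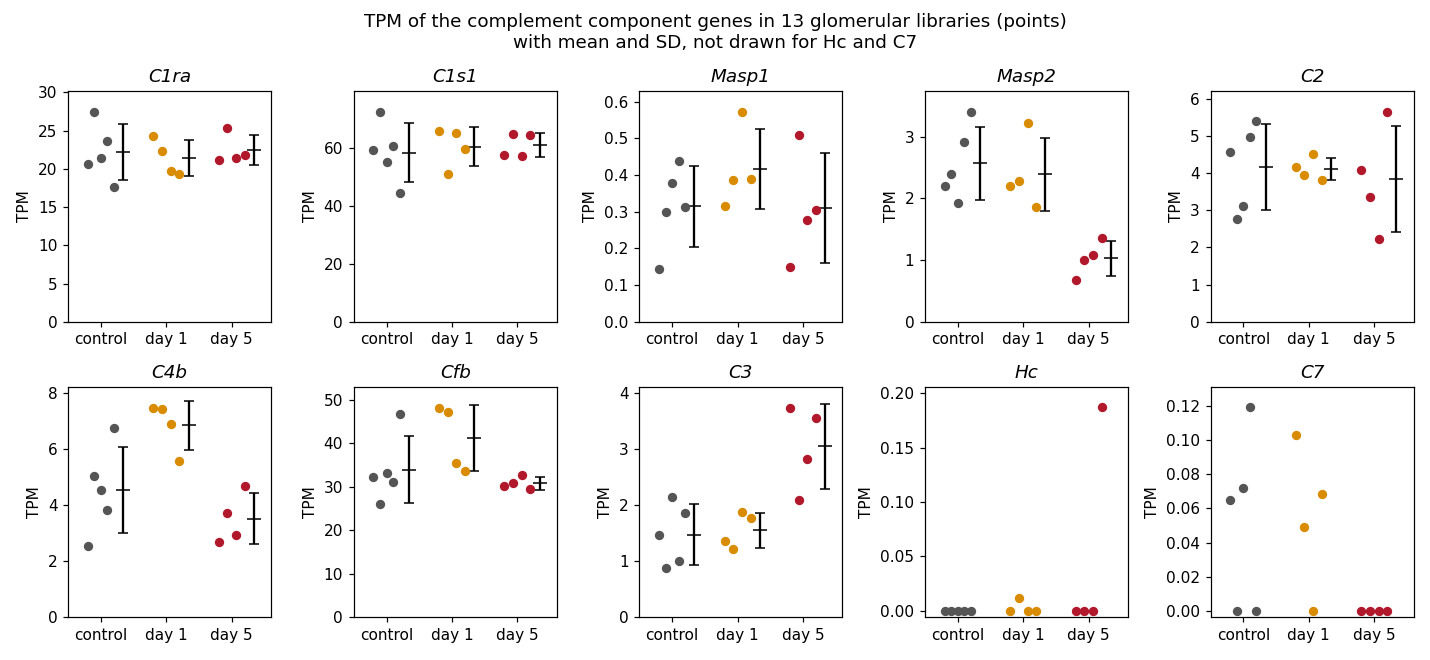
TPM (vertical axes, linear, each panel with its own scale) of the 10 genes in control, MN day 1 and MN day 5 libraries. Points are libraries and bars are the mean with SD, which are not drawn for *Hc* and *C7* because many of their values are 0. *Masp2* lies lower in all 4 day 5 libraries than in any other library, and the 3 highest *C3* values, up to 3.73 TPM, are from day 5.

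Differences were tested with limma on log2(scaled TPM + 0.5) in 1 fit of the 3 groups, and a gene was called at an adjusted p under 0.05 with an absolute log2 fold change above 0.5. On this scale, differences of low genes come out smaller than on the TPM scale. Both MN groups were compared with the same control libraries. At day 1, none of the 7 tested component genes was called, where 0.0908% of all tested genes were called. By unadjusted p under 0.05, *C4b* was the only one of the 7 to pass at day 1, against 12.6% of all tested genes, and the groups overlapped for all 7 (they did not for 3.5% of all tested genes). At day 5, 2 of the 7 were called against 3.21% of all tested genes, *C3* as higher (2.42% of all tested genes were called higher) and *Masp2* as lower (0.789% were called lower). The same pair passed at an unadjusted p under 0.05, against 20.1% of all tested genes, and on scaled TPM did not overlap with control libraries, against 10.7%. Between day 5 and day 1, *Masp2* alone was called, as lower, against 1.81% of all tested genes in either direction and 0.398% called lower. There, *C3*, *C4b*, *Cfb* and *Masp2* passed at an unadjusted p under 0.05 and did not overlap between the days, against 15.5% and 10.6% of all tested genes. The median log2 fold change of the 7 genes was 0.10 at day 1 and -0.08 at day 5, and that of all tested genes was 0.00 at both days.

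**Figure D2:**
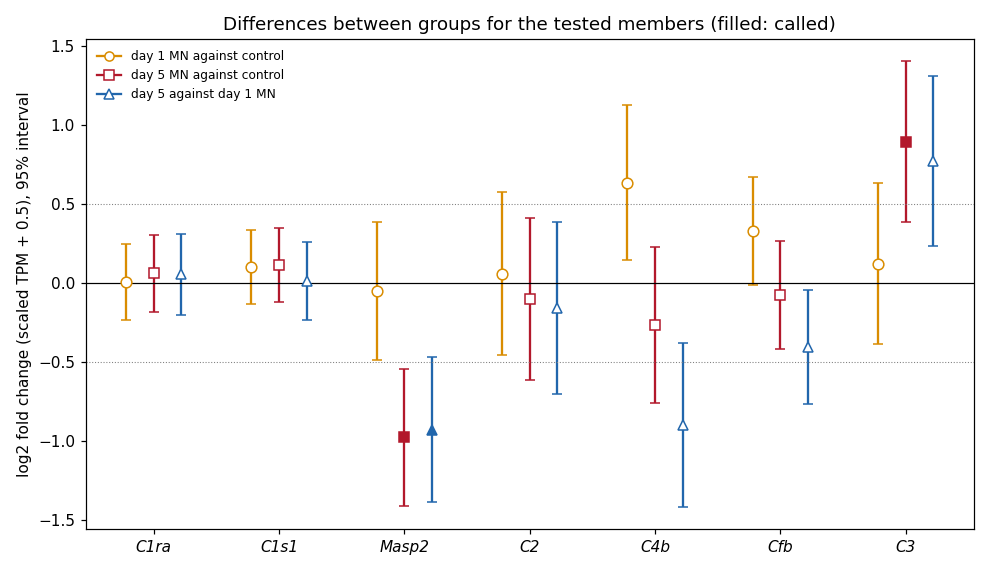
Log2 fold changes (vertical axis, log2 scale) with 95% intervals for the 7 tested genes in the 3 comparisons. Filled symbols mark calls, dotted lines mark the fold change threshold of 0.5 in each direction, and the called values are *C3* at 0.89 and *Masp2* at -0.98 for day 5 against control and *Masp2* at -0.93 for day 5 against day 1.

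The proteases of the classical pathway, *C1ra* and *C1s1*, had the narrowest intervals of the 7 tested genes. *C1ra*, which encodes a C1r protease that activates C1s, had TPM of 20.7, 27.4, 21.4, 23.7 and 17.6 in control libraries, 24.2, 22.4, 19.7 and 19.3 at day 1, and 21.2, 25.3, 21.4 and 21.8 at day 5. The groups overlapped, and the log2 fold change was 0.01 at day 1 (95% interval -0.24 to 0.25) and 0.06 at day 5 (-0.18 to 0.30). *C1s1*, which encodes a C1s protease that cleaves C4 and C2, had TPM of 59.4, 72.4, 55.1, 60.6 and 44.5 in control libraries, 66.0, 51.1, 65.0 and 59.5 at day 1, and 57.5, 64.8, 57.4 and 64.6 at day 5. Its groups overlapped too, with log2 fold changes of 0.10 at day 1 (95% interval -0.13 to 0.34) and 0.11 at day 5 (-0.12 to 0.35). For both genes the intervals at both days excluded a log2 change of 0.5 in either direction. *C1s1* stood at 2.63 ± 0.14 times *C1ra* in control libraries (SD, n = 5), 2.84 ± 0.44 times at day 1 (SD, n = 4) and 2.73 ± 0.17 times at day 5 (SD, n = 4).

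On chromosome 6 of GRCm39 the genes lie next to each other, *C1ra* from 124489364 to 124500402 on the plus strand and *C1s1* from 124507297 to 124559389 on the minus strand. Each has a near-identical copy. Canonical transcripts of *C1ra* and *C1rb* shared 97.9% identity over 2431 aligned bases, and those of *C1s1* and *C1s2* 95.9% over 2643, so the division of reads within each pair is uncertain. Nearly all of the estimated abundance was assigned to the members. *C1rb* had a TPM of at most 0.456 and *C1s2* of at most 2.16 in the 13 libraries.

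The lectin pathway proteases were low. *Masp1*, whose product activates MASP2, had TPM of 0.143, 0.299, 0.378, 0.439 and 0.311 in control libraries, 0.316, 0.386, 0.572 and 0.389 at day 1, and 0.149, 0.510, 0.276 and 0.303 at day 5. No library reached 1 TPM and the groups overlapped. With no filter on low TPM its log2 fold change was 0.19 at day 1 (SE 0.14) and 0.00 at day 5 (SE 0.14). The gene lies on chromosome 16 from 23268167 to 23339779.

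*Masp2* fell at day 5. Its TPM was 2.20, 2.40, 1.93, 2.91 and 3.40 in control libraries, 2.19, 2.28, 3.23 and 1.86 at day 1, and 0.677, 0.997, 1.08 and 1.36 at day 5. No day 5 library overlapped with a control or a day 1 library, while day 1 and control libraries overlapped. Of all tested genes, 4.36% were lower without overlap between day 5 and control libraries. The log2 fold change at day 5 was -0.98 (SE, the standard error, 0.20, adjusted p = 0.0108), or 0.508 times the control level on that scale. At day 1 it was -0.05 (SE 0.20, adjusted p = 0.953). Between the days the difference was -0.93 (SE 0.21, adjusted p = 0.0376). In bulk glomerular RNA, fewer cells of a type and less RNA per cell cannot be told apart, for this gene as for the others.

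The day 5 call of *Masp2* was kept in all 13 fits that each left out 1 library, with values of -1.07 to -0.87 on the log2 scale. It was lost with the replicate number as a block (-0.87, adjusted p = 0.0597), although these numbers label different mice. The block also takes control replicate 5, the only library numbered 5, out of the comparison, and without that library alone the value was -0.87 (adjusted p = 0.0276). The call between the days was less stable, and its adjusted p stayed under 0.05 in 5 of the 13 fits with a library removed. It was lost without control replicate 1 or 4, without day 1 replicate 1, 2 or 3, and without day 5 replicate 1, 2 or 3, with adjusted p-values from 0.0534 to 0.113. It was also lost with no filter on low TPM (adjusted p = 0.0596), with the replicate block (0.0573), with control libraries left out of the fit (0.0620) and with a tubular marker score, the mean log2 level of the 14 markers, added to the fit (-0.76, adjusted p = 0.422).

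*Masp2* lies on chromosome 4 from 148686985 to 148700447 on the plus strand, and *Tardbp*, which encodes the RNA-binding protein TDP-43, is annotated on the opposite strand of the same region. Of the 3585 exonic bases of the canonical *Masp2* transcript, 2308 lie within *Tardbp* exons. *Tardbp* had a TPM of 273 ± 15.5 in control libraries (SD, n = 5), 228 ± 32.3 at day 1 (SD, n = 4) and 291 ± 12.2 at day 5 (SD, n = 4), far above *Masp2*. The sources used here do not state that the counting used strand, and reads from the shared bases could then not be told apart. The log2 fold change of *Tardbp* was 0.13 at day 5 (adjusted p = 0.417) and 0.35 between the days (adjusted p = 0.0495), both opposite in sign to those of *Masp2*. The part of *Tardbp* reads in the *Masp2* value was not tested.

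The sequences before the start of the called genes are shown so that the region in front of each can be read beside its values. They span 250 bases before to 50 after the RefSeq gene start, from a table of GRCm38.p6 that held 6 of the 10 genes (*C1ra*, *C1s1*, *Masp2*, *C3*, *Hc* and *C7*), and were placed on GRCm39 by exact match. They are the C57BL/6J reference and not the Balb/c sequence. Capitals mark matches on either strand to an NF-kB-like pattern (GGG, 5 bases of any kind, then CC) or to TTCNNNGAA (GAS-like, as bound by STAT factors). An ISRE-like pattern (GAAA, 2 bases of any kind, then GAAA) and TGANTCA (AP-1-like) were also searched and are not in either window. The *Masp2* window is chr4:148686751-148687050 on the plus strand and the *C3* window is chr17:57535087-57535386 on the minus strand, both written 5′ to 3′.
Masp2: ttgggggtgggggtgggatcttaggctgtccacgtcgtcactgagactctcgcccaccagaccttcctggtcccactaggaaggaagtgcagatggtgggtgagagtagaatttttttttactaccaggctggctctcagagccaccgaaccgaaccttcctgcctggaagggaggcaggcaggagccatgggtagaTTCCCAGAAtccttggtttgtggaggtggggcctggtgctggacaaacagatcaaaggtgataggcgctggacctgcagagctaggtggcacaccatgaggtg
C3: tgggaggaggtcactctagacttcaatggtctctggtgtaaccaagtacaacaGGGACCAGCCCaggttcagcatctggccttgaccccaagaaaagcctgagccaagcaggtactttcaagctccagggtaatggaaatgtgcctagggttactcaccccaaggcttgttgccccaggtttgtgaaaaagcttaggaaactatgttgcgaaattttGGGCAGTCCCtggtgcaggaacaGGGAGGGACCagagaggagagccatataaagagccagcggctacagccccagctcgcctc
The *Masp2* window holds a GAS-like match that begins 53 bases before the gene start, and 8.3% of the 32851 RefSeq promoter windows in the table hold at least 1. The *C3* window holds 4 NF-kB-like matches, a pair of which overlap, and 50.8% of all windows hold at least 1 match to this loose pattern. The other motifs were in 3.44% (ISRE-like) and 7.81% (AP-1-like) of all windows. A match of letters is not a bound site.

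*C2* and *C4b* encode the substrates that C1s and MASP2 cleave. *C2*, the source of the protease subunit of the classical C3 convertase, had TPM of 4.58, 2.77, 3.13, 4.97 and 5.40 in control libraries, 4.17, 3.95, 4.50 and 3.82 at day 1, and 4.08, 3.36, 2.24 and 5.64 at day 5. Its lowest and its highest value were both at day 5, and the groups overlapped. The log2 fold change was 0.06 at day 1 (95% interval -0.45 to 0.57) and -0.10 at day 5 (-0.61 to 0.41), intervals that leave room for a change of 0.5 in at least 1 direction.

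*C4b* encodes mouse C4, whose cleaved form binds covalently to the target surface and forms the other subunit of that convertase. Its TPM was 2.54, 5.03, 4.55, 3.82 and 6.73 in control libraries, 7.47, 7.41, 6.89 and 5.56 at day 1, and 2.70, 3.73, 2.92 and 4.69 at day 5. Day 1 libraries were the highest apart from control replicate 5, and all 4 lay above all 4 day 5 libraries. Against control the log2 fold change was 0.63 at day 1 (SE 0.23, adjusted p = 0.307) and -0.27 at day 5 (SE 0.23, adjusted p = 0.584), and neither was called. The difference between the days was -0.90 (SE 0.24, adjusted p = 0.0728) and was not called either. It passed when control libraries were left out of the fit (adjusted p = 0.0294), without control replicate 1 (0.0369) and without control replicate 5 (0.0295).

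*Cfb* encodes factor B, the protease of the alternative pathway convertase, and had the second highest level of the 10 genes. Its TPM was 32.3, 26.1, 33.1, 31.1 and 46.7 in control libraries, 48.1, 47.0, 35.5 and 33.7 at day 1, and 30.1, 30.8, 32.6 and 29.4 at day 5. Every day 1 library lay above every day 5 library, and both groups overlapped with control libraries. The log2 fold change was 0.33 at day 1 (SE 0.16, adjusted p = 0.413), -0.08 at day 5 (SE 0.16, adjusted p = 0.848) and -0.41 between the days (SE 0.17, adjusted p = 0.257). Among the 7 genes, *Cfb*, *C4b* and *Masp2* were lower at day 5 than at day 1 without overlap, where 5.25% of all tested genes were.

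*C2*, *Cfb* and *C4b* lie close together in the major histocompatibility region of chromosome 17, on the minus strand, at 35081578 to 35117241, 35074852 to 35081559 and 34947354 to 34962912. Only 18 bases separate *Cfb* from *C2*. An annotated gene that spans both, *Gm20547*, shares 2246 exonic bases with *Cfb* and 1656 with *C2*, and it was listed at 0 in all 13 libraries. Of the 3346 canonical exonic bases of *Cfb*, 1630 lie in exons of *Nelfe* on the opposite strand, which had a TPM of 49.4 ± 7.78 in control libraries (SD, n = 5) and 55.5 ± 5.83 at day 5 (SD, n = 4). *C4a*, a copy with 95.9% identity to *C4b* over 5382 bases, was looked for and had no row in the expression table. The levels of these 3 genes are therefore uncertain as to the transcript they come from.

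The 5 libraries with the highest summed tubular TPM, control replicate 5 and the 4 day 1 libraries, were also the 5 with the highest *Cfb* and the 5 with the highest *C4b* TPM. The order did not hold throughout for *C4b*, since control replicate 2, with the lowest tubular sum (2444 TPM), had the second highest *C4b* of the control libraries (5.03 TPM), and among day 1 libraries the lowest sum (4377 TPM) went with more *C4b* (6.89 TPM) than a sum of 7001 TPM did (5.56 TPM). With the tubular marker score added to the fit, the day 1 log2 fold change of *C4b* was 0.34 (adjusted p = 0.815) and that of *Cfb* was -0.05 (adjusted p = 0.962). The differences between the days were then -0.61 for *C4b* (adjusted p = 0.646) and -0.02 for *Cfb* (adjusted p = 0.989). Without control replicate 5, the day 1 log2 fold changes were 0.79 for *C4b* (adjusted p = 0.0715) and 0.47 for *Cfb* (adjusted p = 0.0781). The part of tubular RNA in these values was not tested.

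**Figure D3:**
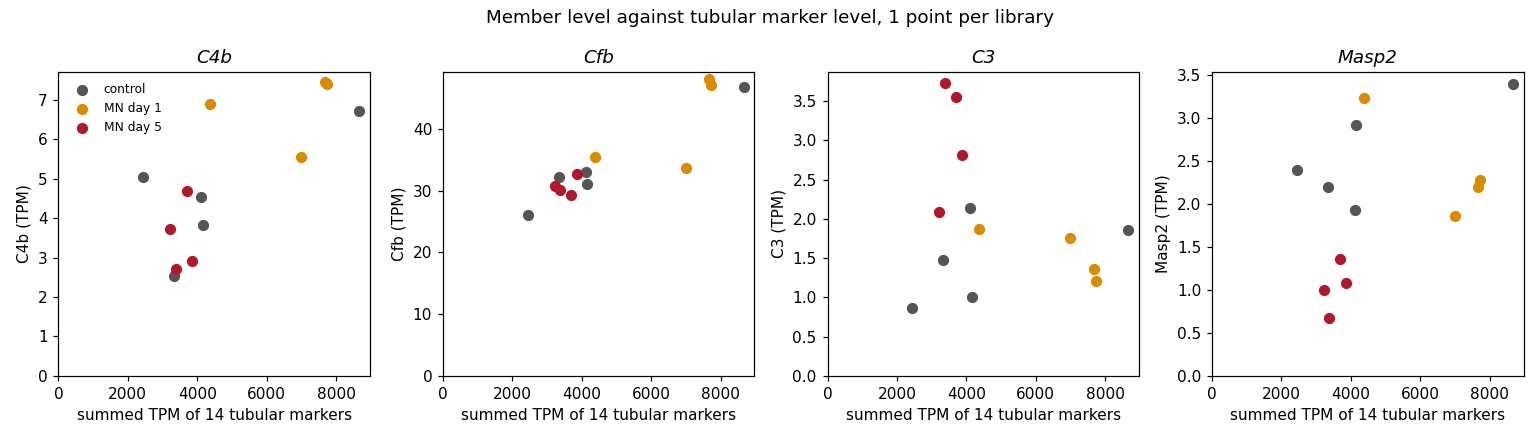
TPM of *C4b*, *Cfb*, *C3* and *Masp2* (vertical axes, linear) against the summed TPM of 14 tubular markers (horizontal axis, linear), with 1 point per library coloured by group. Most of each sum is *Kap*. The 5 libraries from 4377 to 8664 summed TPM have the highest *C4b* and *Cfb* values, whereas the 3 highest *C3* and the 4 lowest *Masp2* values are in day 5 libraries at 3226 to 3862.

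*C3* rose at day 5. It encodes the central component, and lies on chromosome 17 from 57510964 to 57535155 on the minus strand. Its TPM was 1.47, 0.871, 2.14, 1.00 and 1.86 in control libraries, 1.36, 1.21, 1.87 and 1.76 at day 1, and 3.73, 2.08, 2.82 and 3.55 at day 5. All day 5 libraries lay above all day 1 libraries, as for 5.3% of all tested genes. Against control, day 5 replicate 2 (2.08 TPM as deposited) lay just under control replicate 3 (2.14), an order that turned after scaling (2.14 against 2.10 scaled TPM). On scaled TPM, 6.38% of all tested genes were higher at day 5 without overlap. The log2 fold change at day 5 was 0.89 (SE 0.24, adjusted p = 0.0410), or 1.86 times the control level on that scale. At day 1 it was 0.12 (SE 0.24, adjusted p = 0.877), and the difference of 0.77 between the days was not called (SE 0.25, adjusted p = 0.146). The levels remained low, at 3.05 ± 0.75 TPM at day 5 (SD, n = 4) against 1.47 ± 0.54 in control mice (SD, n = 5).

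The day 5 call of *C3* was close to the threshold. It was 0.77 to 1.03 on the log2 scale in the fits that each left out 1 library, but the adjusted p was under 0.05 in only 4 of 13. The call was lost without control replicate 1, 2 or 4, without day 1 replicate 1, 2 or 4, and without day 5 replicate 1, 3 or 4, with adjusted p-values from 0.0505 to 0.133. It was also lost with quantile normalization (adjusted p = 0.0543), with no filter on low TPM (0.0685) and with day 1 libraries left out of the fit (0.0742). With the tubular marker score in the fit the value was 0.90 (adjusted p = 0.0350). The 6 macrophage markers summed to 92.7 to 139 TPM in control libraries and 120 to 150.5 TPM at day 5, and all 5 tested had positive log2 fold changes at day 5 (0.05 to 0.19) with none called. The 5 fibroblast markers summed to 53.2 to 103 TPM in control libraries and 56.1 to 81.4 TPM at day 5, and 3 of the 4 tested had positive values (median 0.755 on the log2 scale). None of the 4 was called, and 3 had an unadjusted p under 0.05, against 20.1% of all tested genes. The lowest of the 4 log2 fold changes was -0.12. Most of the sum was *Pdgfra* (47.1 to 99.4 TPM over all libraries). Its TPM was 47.5 to 69.1 at day 5 against 49.6 to 99.4 in control libraries. *Col3a1* overlapped as well, at 2.20 to 5.31 TPM against 1.60 to 3.67 TPM. *Dcn* was at 2.04 to 2.11 TPM at day 5 against 0.298 to 1.83 TPM in control libraries, and *Col1a1* at 2.76 to 4.79 TPM against 1.30 to 2.34 TPM. Of the 4 parietal epithelial markers, which summed to 15.0 to 23.5 TPM in control libraries and 23.8 to 28.6 TPM at day 5, 3 had positive values and 1 was called as higher, where 2.42% of all tested genes were. At day 1 the parietal markers summed to 22.7 to 32.6 TPM and all 4 had positive values (median 0.70, against 0.37 at day 5). None was called at day 1, and 3 had an unadjusted p under 0.05, against 12.6% of all tested genes. All 5 glomerular endothelial markers had positive values at day 5 (median 0.21), and 3 had an unadjusted p under 0.05. Of the 5 mesangial markers, 4 had positive values and 1 a negative value. Of the 6 podocyte markers, 2 had positive and 4 had negative values. None of these endothelial, mesangial and podocyte markers was called. The part of all these cell types in the *C3* value was not tested.

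**Figure D4:**
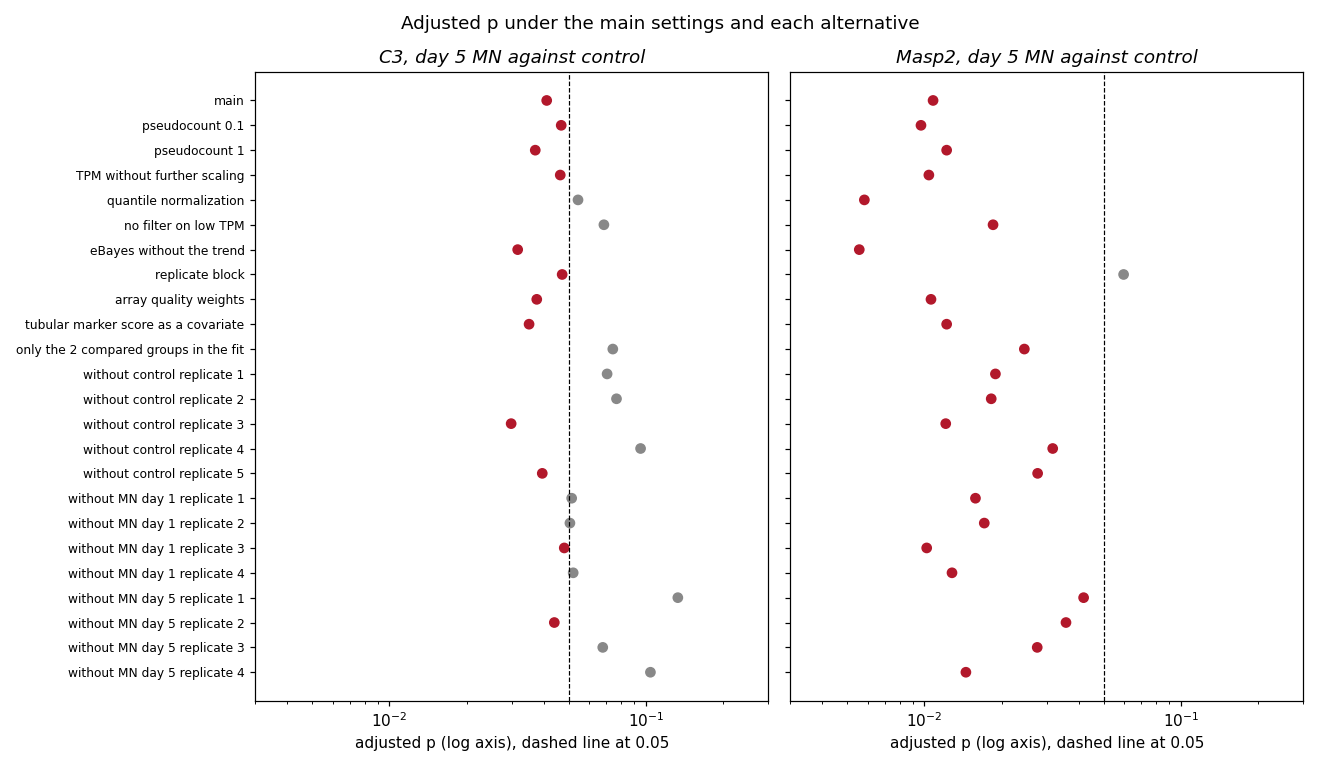
Adjusted p (horizontal axis, log scale) of *C3* (left) and *Masp2* (right) for day 5 MN against control, under the main settings and each alternative listed on the vertical axis. Points left of the dashed line at 0.05 are red. For *C3* the values lie on both sides of the line, from 0.0298 to 0.133, and for *Masp2* the replicate block alone lies to the right.

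The terminal components were at or near 0. *Hc*, whose product C5 starts the terminal steps, was listed at 0 in 11 of 13 libraries and had a TPM of 0.0114 in day 1 replicate 2 and 0.187 in day 5 replicate 4. *C7*, whose product anchors the forming membrane attack complex in the membrane, was listed at 0 in 7 libraries. Its TPM was 0.0647, 0, 0.0722, 0.120 and 0 in control libraries, 0.103, 0.0491, 0 and 0.0684 at day 1, and 0 in all 4 day 5 libraries. At such levels no difference could be read, and the depth that would set a detection limit is unknown. *Hc* lies on chromosome 2 from 34873343 to 34951453 and *C7* on chromosome 15 from 5017233 to 5093252.

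Other complement genes were followed from a list of 47 symbols, of which 45 had a row in the table and 23 were tested. At day 1 none of the 23 was called (limma), against 0.0908% of all tested genes, and 2 had an unadjusted p under 0.05, against 12.6%, with a median log2 fold change of 0.02. At day 5, 1 of the 23 was called, against 3.21% of all tested genes, and 6 had an unadjusted p under 0.05, against 20.1%, with a median of 0.13. These shares were near those of all tested genes. Of the 7 tested recognition molecules and proteases, 6 had positive values at day 5 and none was called (2 had an unadjusted p under 0.05). Among them the subunits of C1q, the molecule that recognises bound antibody, had log2 fold changes of 0.42 (*C1qa*, adjusted p = 0.406), 0.68 (*C1qb*, adjusted p = 0.195) and 0.76 (*C1qc*, adjusted p = 0.172). Their levels were low, with means at day 5 of 1.22 ± 0.21, 1.15 ± 0.42 and 0.897 ± 0.40 TPM (SD, n = 4) against 0.810 ± 0.15, 0.533 ± 0.22 and 0.313 ± 0.10 TPM in control mice (SD, n = 5). No control library reached 1 TPM for any C1q subunit, the highest being 0.958 (*C1qa*), 0.855 (*C1qb*) and 0.395 TPM (*C1qc*). The subunits thus passed the filter only through MN libraries, which favours positive values and the counts above that include them. No rise is read from these values. The level of *C1s1* in the same control libraries was thus far above that of any C1q subunit. Of 5 other terminal components, *C8a* and *C8g* were tested and not called, *C8b* was listed at 0 in all 13 libraries, and *C6* and *C9* were at most at 0.190 and 0.215 TPM. *C8g* had means of 9.15 TPM in control libraries, 9.24 TPM at day 1 and 7.54 TPM at day 5. Those of *C8a* were 1.08, 1.23 and 0.733 TPM.

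Of the 9 tested regulators, *Clu*, which encodes clusterin, a chaperone that binds the terminal complex, was called. Its TPM was 13.6, 17.8, 15.2, 16.1 and 13.2 in control libraries, 22.8, 26.7, 16.8 and 21.1 at day 1, and 58.6, 45.2, 48.0 and 35.2 at day 5. All day 5 libraries lay above all other libraries. On scaled TPM, 6.38% of all tested genes were higher without overlap at day 5 than in control libraries, and 5.3% than at day 1. The log2 fold change was 1.61 at day 5 (SE 0.16, adjusted p = 6.1e-05) and 0.54 at day 1 (SE 0.16, adjusted p = 0.241). The difference of 1.07 between the days was called (adjusted p = 0.00278), as for 1.81% of all tested genes in either direction. The regulators of the C3 convertase *Cd46* (-0.24), *Cd55* (-0.01) and *Cr1l* (0.09) were not called at day 5, nor was *Serping1* (0.28, adjusted p = 0.104), the inhibitor of C1r, C1s and MASP2. None of the 5 tested receptors was called at day 5, at 0.04 to 0.43 on the log2 scale. Of the 5, 1 had an unadjusted p under 0.05, against 20.1% of all tested genes. *Cd93*, a C1q-binding endothelial protein, had an adjusted p of 0.0376 but a log2 fold change of 0.35, under the fold change threshold. Of all tested genes, 6.12% had an adjusted p under 0.05 at day 5 whatever their fold change.

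**Figure D5:**
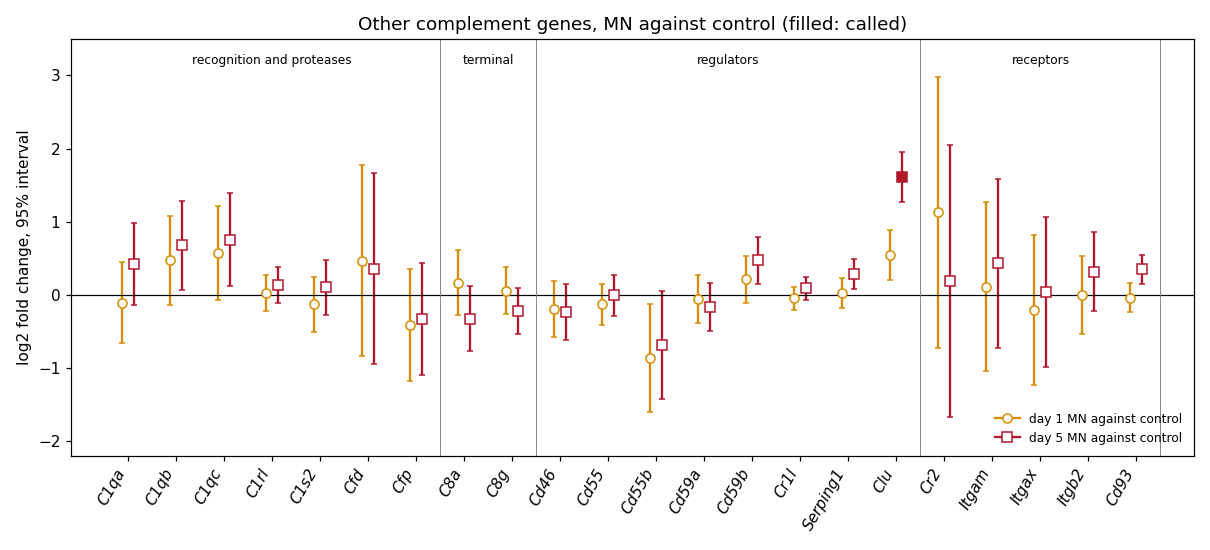
Log2 fold changes (vertical axis, log2 scale) with 95% intervals for the other complement genes tested, except 1 regulator that is not shown, grouped by role, at day 1 (circles) and day 5 (squares) against control. The filled square marks the called gene, *Clu*, at 1.61, and the intervals of *Cr2*, *Cfd* and *Itgam* are the widest.

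The genes with a course across the 13 libraries most like that of *C3* and *Masp2* were taken by the root mean square difference of standardised log2 values. For *C3* they were *Rnf4* (0.35), *Lnpep* (0.39) and *H1f2* (0.45), and for *Masp2* they were *Acvr1b* (0.42), *Prepl* (0.42) and *Clk4* (0.42). No other component gene was among them. They are the closest of the 14322 tested genes over few libraries and are given as a description.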

How the data were processed

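Glomerular RNA of 13 mice was sequenced by the authors, 1 library per mouse. Reads were trimmed with Trimmomatic 0.39 and quantified with kallisto 0.46.2 against GRCm39, and the authors deposited TPM per gene symbol. Listed TPM summed to 989774 to 996064 per library. Read counts were not used here, so depth is unknown. Groups and replicate numbers came from the sample titles.

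Median-of-ratios factors from 15772 genes above 0 throughout (0.955 to 1.04) were applied to the TPM, and log2(scaled TPM + 0.5) was computed. The 14322 genes that reached 1 TPM in 4 or more libraries were analysed with limma 3.58.1 (R 4.3.3) in a single fit of the 3 groups with a mean-variance trend, using Benjamini-Hochberg adjustment over all tested genes of a comparison. The authors tested counts with DESeq2. Calls needed both an adjusted p under 0.05 and a log2 fold change beyond 0.5 in either direction. The procedure was tested on simulated data. P-values set a difference between groups against the spread between these mice, estimated over the 3 groups with that trend.

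The 10 component genes and the lists of other complement genes and markers were chosen with earlier results of these data known. All 10 were named whatever their values, with other complement genes named where called, where they are close copies or C1q subunits, and otherwise as examples. *Serping1*, *Cd46*, *Cd55*, *Cr1l*, *Cd93*, *C6*, *C8a*, *C8b*, *C8g*, *C9*, *Cr2*, *Cfd*, *Itgam*, *Pdgfra*, *Dcn*, *Col1a1*, *Col3a1*, *Kap* and *Ttr* were named after their values were seen, as were the overlapping genes. The values of 1 tested regulator, which is in the counts, are not reported here. Loci come from the GENCODE vM39 annotation of GRCm39 and may differ from the transcripts used for quantification. Transcripts were aligned with BLAST+ 2.17.0. Alternatives covered the pseudocount, scaling, filter, trend, groups in the fit, replicate block, array weights, the tubular score (mean log2 value of 14 markers) as a covariate and leaving out each library.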

Additional observations from a re-analysis of the deposited data

Results flagged for a closer look

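In 28 sets of replicate values of the component genes, 1 library stood apart in 3, by Dixon's test at 95%. For values without ties, this test flags about 1 set in 20 by chance. *C1ra* had a TPM of 25.3 in day 5 replicate 2, against 21.2 to 21.8 in the other day 5 libraries. *Hc* had a TPM of 0.0114 in day 1 replicate 2 and of 0.187 in day 5 replicate 4, against 0 in the other libraries of each group. With all other values at 0, any value above 0 is flagged whatever its size, so the rate by chance does not apply to the *Hc* sets. The fold change of *Masp2* differed between the days, by -0.93 on the log2 scale (adjusted p = 0.0376, limma), with all 4 day 5 libraries below all 4 day 1 libraries. These days share their control libraries.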

How the results depend on the processing

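The 12 alternatives of settings and the 13 fits that each left out 1 library called 0 component genes at day 1 (limma). At day 5, where 2 were called, 1 was called with quantile normalization, no filter on low TPM, the replicate block and only the compared groups in the fit, and 0 when each library had to reach 1 TPM, which leaves *C3* and *Masp2* untested. Leaving out a library gave 1 to 2. Between the days, where 1 was called, 0 were called with no filter, with the filter on every library, with the block and with the tubular score, and leaving out a library gave 0 to 2. With only the compared groups the 1 called was *C4b* in place of *Masp2*. Over all genes, the 13 calls at day 1 became 6 with no filter, 7 without the trend, 149 with the block, 0 with the tubular score (1226 genes at an unadjusted p under 0.05) and 2 with only the compared groups (3 to 218 leaving out a library, the highest without control replicate 5). The 460 calls at day 5 became 876 on the adjusted p alone (326 to 474 leaving out a library). The 259 between the days became 153 with the filter on every library, 116 with the tubular score and 417 with only the compared groups (150 to 437 leaving out a library). Same-numbered libraries did not deviate together (correlations of -0.06 to 0.09 in 12 pairs). No pairing by number was seen, but over so few libraries this cannot exclude that same-numbered mice were handled together. The block also removes control replicate 5, the only library numbered 5, from the comparisons with control, and without that library alone 218 genes were called at day 1.

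Signs turned only for log2 fold changes that were not called. With the tubular score, day 1 log2 fold changes were -0.28 for *C2*, -0.16 for *C3* and -0.048 for *Cfb*, and differences between the days were 0.18 for *C2*, -0.14 for *C1ra* and -0.25 for *C1s1*. With the block, they were -0.058 for *C1ra* and 0.0538 for *Masp2* at day 1, and 0.0065 for *C2*, 0.057 for *Cfb* and -0.0019 for *C1ra* at day 5. Without further scaling, *C1ra* was at -0.0394 at day 1. Leaving out a library, the ranges at day 1 were -0.0667 to 0.17 for *C2*, -0.0022 to 0.24 for *C3*, -0.0571 to 0.0766 for *C1ra* and -0.17 to 0.0545 for *Masp2*. At day 5 they were -0.28 to 0.12 for *C2*, -0.17 to 0.0565 for *Cfb* and -0.0056 to 0.13 for *C1ra*. Between the days they were -0.34 to 0.0621 for *C2*, -0.011 to 0.12 for *C1ra* and -0.0606 to 0.0617 for *C1s1*. The cause was not tested.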
